A study of Homo sapiens with 2 samples.

Results

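Transcripts annotated for nonsense-mediated decay (NMD) were described in rRNA-depleted total RNA of HEK293 Flp-In T-Rex cells. HEK293 cells are a widely used line from human embryonic kidney, and the Flp-In T-Rex version accepts a tetracycline-regulated transgene at a fixed genomic site. The labels gave 1 group of 2 libraries, replicate 1 and replicate 2, and name neither a treatment nor a transgene for them. Whether the libraries came from separate cultures was not stated, so their spread may be technical. Members were chosen by annotation alone: each listed transcript was matched without its version to GENCODE v44 (GRCh38), and those with the transcript type nonsense_mediated_decay were kept. This gave 15536 members in 7210 genes, of 206696 transcripts listed. GENCODE v44 holds 21384 transcripts of this type. Shares of a gene were described in the 5174 genes that had at least 1 member and a total of at least 100 normalised counts in both libraries, and these genes held 11882 of the members.

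NMD is a surveillance pathway that degrades mRNAs on which translation ends too early. During splicing an exon junction complex is left just upstream of each junction, and a ribosome that stops well before the last junction leaves such complexes in place, which recruits UPF1 and the SMG proteins to the mRNA. Annotators apply this as a distance rule: a transcript is typed as NMD when its stop codon lies more than about 50 nt upstream of the last exon-exon junction. The pathway is known for removing faulty mRNAs, and also for the control of SR proteins and hnRNPs, splicing regulators whose own genes carry exons with early stops (poison exons). The annotation is a prediction from structure. These libraries hold no sample in which NMD was blocked, so how fast any member is degraded was not measured.

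The stop codons of the members that the results turn on are given first, each with its last 27 coding bases in lower case and the stop codon in capitals, written 5′ to 3′ from GENCODE v44 transcripts. The position is that of the stop codon, on an exon of the transcript. The first set holds members with many counts or a high share of their gene.
RPLP0-214 (chr12:120199377-120199379, minus strand): tgtcccttcgcgggaaggctgtggtgcTGA
RACK1-210 (chr5:181241574-181241576, minus strand): ggatgtgctgagtgtggccttctcctcTGA
CCT3-203 (chr1:156334735-156334737, minus strand): cccaatgggaggcattgtgatgaccaaTGA
RPS25-206 (chr11:119017937-119017939, minus strand): aaaaagaaggtagaaataagacctctcTGA
SON-208 (chr21:33573318-33573320, plus strand): ctgctaccgaggcctaggatcagttctTAA
PDIA3-202 (chr15:43751630-43751632, plus strand): gaagaggagagtctcctccagcctcatTGA
SHMT2-231 (chr12:57231915-57231917, plus strand): gggctggacctgcccgatgggggccagTGA
HINT1-206 (chr5:131160824-131160826, minus strand): gatgaaagtagtgttgaatatctcatgTAA
PODXL-203 (chr7:131509317-131509319, minus strand): gggcaagtaggagaacccagactcgggTAG
The next set begins with SRSF6-201, the canonical SRSF6 transcript, whose stop codon lay in the last exon, 361 nt after the last junction. The others are members of SR protein and TRA2 genes with an exon that the canonical transcript does not have. SRSF6-202 ended after 135 amino acids, in place of 344 for the canonical transcript, with 4 junctions still to come.
SRSF6-201 (chr20:43461061-43461063, plus strand): tcaaggtccaggtcgagttccagagatTAA
SRSF6-202 (chr20:43459302-43459304, plus strand): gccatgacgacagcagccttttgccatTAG
SRSF3-203 (chr6:36599852-36599854, plus strand): accatcatgtctcttctcaccaccctcTGA
SRSF9-206 (chr12:120464812-120464814, minus strand): ttccgagttcttgtttcagaaaactatTAG
TRA2B-205 (chr3:185931772-185931774, minus strand): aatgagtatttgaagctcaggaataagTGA
The last set holds 3 members that end at the canonical stop codon and are typed as NMD because introns are spliced out after it, and METTL8-207, a member of the gene that the study was about.
SRSF2-208 (chr17:76736161-76736163, minus strand): cctgaagaggaaggagcggtgtcctctTAA
HNRNPA1-205 (chr12:54284311-54284313, plus strand): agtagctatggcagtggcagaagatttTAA
HNRNPD-211 (chr4:82355334-82355336, minus strand): ggtcatcaaaatagctacaaaccatacTAA
METTL8-207 (chr2:171325891-171325893, minus strand): attcatcctgacaggacattgtttatcTGA
In SRSF2-208 the stop lay 105 nt before the last junction, in HNRNPA1-205 it lay 75 nt before it and in HNRNPD-211 it lay 137 nt before it, each with 2 junctions downstream.

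Both tables were deposited as RSEM estimated counts, which divide reads that fit several transcripts between them, and as the authors' normalised counts, the estimated count divided by a size factor of 0.945 for replicate 1 and 1.08 for replicate 2. The totals were 25158962 and 27143860 estimated counts. HEK293 marker genes were present: VIM had a mean of 15885 normalised counts, NEFL 1858, INA 375, NES 211, LHX1 112, PAX2 42.0 and NEFM 16.6. Of the markers of other cell types, PTPRC, CD3E, ALB, UMOD and INS were listed at 0 in both libraries, PECAM1 had 0.993, and COL1A1 had 156 in replicate 1 and 291 in replicate 2. A transcript listed at 0 could have had up to 3 counts, or 3.17 normalised counts in replicate 1 and 2.78 in replicate 2. Intervals on shares of counts and these limits cover counting error only, not the division of reads between transcripts. Intervals on percents of transcripts treat the transcripts as independent.

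NMD members took a small and repeatable part of the RNA counted. They held 3.91% of all estimated counts in replicate 1 (95% exact interval 3.90 to 3.91%) and 3.89% in replicate 2 (3.88 to 3.90%), a mean of 3.90% ± 0.0127 (SD, n = 2). This became 2.57% after division by length. With transcripts of the same version only it was 6.38%, but this removes most canonical transcripts from the total. Members of support level 1 or 2 alone held 2.25%, with all transcripts kept in the total. Of the 15536 members, 5951 were above 0 in both libraries, 3354 in only 1 of them, and 6231 (40.1%) were listed at 0 in both. Counts were concentrated: the 10 members with the most counts held 11.6% ± 0.274 of all NMD counts, the 100 highest 32.7% ± 1.32 and the 1000 highest 73.5% ± 1.65 (SD, n = 2 each). Nearly all NMD counts, 99.0% ± 0.107, lay in the 5174 genes described, which held 34.5% ± 0.571 of the counts of all transcripts.

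Within these genes the members held 11.1% (replicate 1) and 11.3% (replicate 2) of the pooled gene totals (mean 11.2% ± 0.137, SD, n = 2). Protein-coding transcripts of the same genes held 78.6% ± 0.369, retained-intron transcripts, which keep an intron and have no annotated coding sequence, 7.50% ± 0.260, and transcripts without a defined coding sequence 2.65% ± 0.0261. Members were shorter than protein-coding transcripts, with a median of 1068.5 nt against 1559 nt. After division by transcript length the NMD share became 13.01% ± 0.154, against 70.3% ± 0.329 for protein-coding and 11.1% ± 0.183 for retained-intron transcripts. With transcripts of the same version only the NMD share was 19.1%, but this removes most canonical transcripts from the totals. A median gene listed 2 members among 11 transcripts, and the most in a gene was 37.

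The share of a gene differed widely between genes. The median share was 3.99% in replicate 1 and 4.70% in replicate 2 (4.34% ± 0.499, SD, n = 2), with quartiles of 0.365% ± 0.157 and 17.8% ± 0.724. The median was 7.08% after division by length and 2.88% at a minimum total of 1000. With transcripts of the same version only, which leaves out most canonical transcripts, it was 10.5%. All members of the gene were listed at 0 in both libraries in 673 genes (13.01%). The share was under 1% in both libraries in 1243 genes (24.0%, these 673 included), at least 10% in both in 1576 genes (30.5%) and at least 50% in both in 257 genes (4.97%). Just above the minimum total, the shares in replicates 1 and 2 were 3.22% and 1.32% in CEP162, 59.1% and 70.8% in OPN3, and 7.28% and 21.9% in RUNX2. Just below it, ZNF154 had 13.5% and 1.19%, and GRAMD1C and CERKL were listed at 0.

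**Figure D1:**
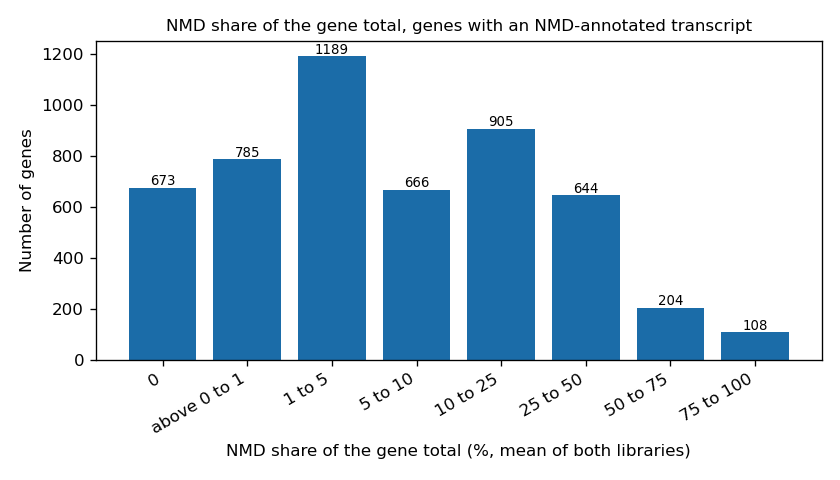
Number of genes (y axis) by the mean NMD share of the gene total over both libraries in percent (x axis, bins of unequal width) for the 5174 genes with a member and at least 100 normalised counts in both libraries. The bin from 1 to 5% held the most genes, 1189, and 108 genes lay between 75 and 100%.

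The 12 highest members each had a mean of at least 4876 normalised counts. RPLP0-214, of the stalk protein of the large ribosomal subunit, had 23872 (replicate 1) and 20191 (replicate 2) normalised counts, which was 54.0% and 49.3% of RPLP0. Its coding sequence of 57 amino acids replaces 317 in the canonical transcript. RACK1-210, of a scaffold protein on the small subunit, had 16846 and 20517, or 24.9% and 32.8% of the gene. RPL13A-214, of a large subunit protein, had 17828 and 15393, or 46.9% and 42.1%. RACK1-210 was higher in replicate 2 and the other pair higher in replicate 1.

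RPL8-211, of a large subunit protein, had 10786 and 10657 normalised counts. CCT3-203, of a subunit of the chaperonin that folds actin and tubulin, had 11375 and 7955, or 59.8% and 50.3% of the gene. RPS25-206 had 8253 and 6922, which was 90.1% and 91.0% of RPS25. SON-208 had 7058 and 7217, or 48.6% and 50.2% of the gene for a large speckle protein that aids splicing. In this member the stop came after 2325 of the canonical 2426 amino acids, so it was the least shortened of the 12 highest members relative to the canonical protein.

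CKB-204, of the brain-type creatine kinase, had 6316 and 7377 normalised counts, RPS3-210 6545 and 4876, PDIA3-202, of a disulphide isomerase of the endoplasmic reticulum, 5757 and 4839, and IARS1-204, of the cytosolic isoleucyl-tRNA synthetase, 5153 and 4599. None of the 12 highest members differed by more than 2-fold between the libraries. At a mean of 1000 or more few transcripts did, 4.50% of all transcripts and 7.79% of members. The log2 difference, replicate 2 against replicate 1 on log2(normalised count + 1), ran from -0.52 for CCT3-203 to 0.28 for RACK1-210. Per kilobase of transcript, RPLP0-214 and RACK1-210 ranked 2 and 3 among all members, while the long IARS1-204 (4587 nt) ranked 74.

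**Figure D2:**
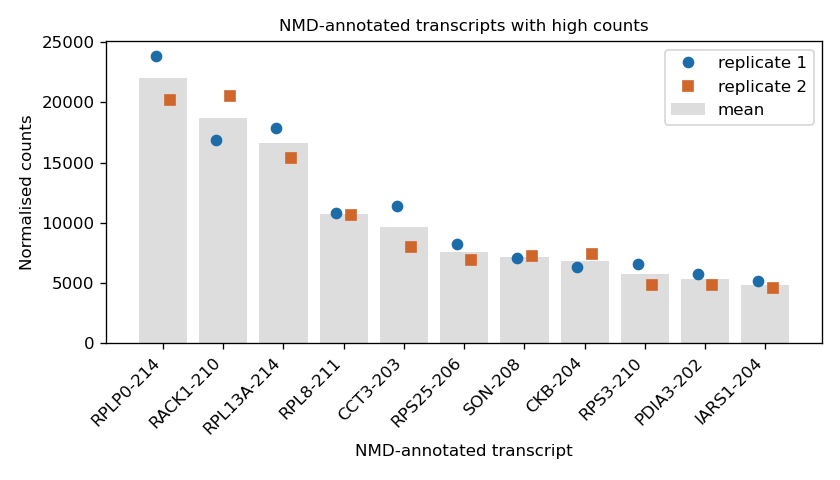
Normalised counts (y axis, linear from 0) of the members named among the 12 with the highest mean (x axis); circles are replicate 1, squares replicate 2 and grey bars their mean. RPLP0-214 had the highest mean, 22031, and IARS1-204 the lowest of the 12, 4876.

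These members differ from other transcripts of their gene in few stretches of sequence. Each transcript was cut into all its runs of 50 nt, and a run was called its own where no other listed transcript of the same gene held it; other genes and pseudogenes were not searched. RPLP0-214, RACK1-210, RPL8-211 and SON-208 had no run of their own. RPL13A-214 had 46 of 1073, CCT3-203 48 of 1836, RPS25-206 48 of 459 and PDIA3-202 224 of 2058. A single new junction changes at most 49 such runs. Ribosomal protein genes also have many processed pseudogenes, and no source used here gives the strand setting, so reads can be divided between copies and overlapping genes. The models compared are those of GENCODE v44, which for some transcripts differ in version from the models counted.

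Some genes were assigned to NMD members almost entirely. In 35 genes the share was 100% in both libraries, and 32 of these were listed with NMD transcripts only, so that nothing else could hold counts; several are readthrough loci that join neighbouring genes, such as BLOC1S5-TXNDC5 and HNRNPUL2-BSCL2. The choice to leave the 35 out of the genes named was made after the values were seen. The highest of the others was THSD8, at 99.9% and 99.7%, through THSD8-201, which ends at the canonical stop of 115 amino acids and has 7 junctions after it. HINT1, a purine nucleoside phosphoramidase gene, had 97.0% in both libraries, on totals of 7196 and 5456 normalised counts. PODXL, the gene for the sialomucin podocalyxin, had 97.6% and 96.3% on totals of 2805 and 2867.

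In HINT1 the leading member was HINT1-206, with an exon gained, at 5273 and 3881 normalised counts, and the canonical HINT1-201 had 73.6 and 82.1. PODXL was held by its only member, PODXL-203, with 2737 and 2760, and the canonical PODXL-202 had 61.3 and 90.8. PODXL-203 lacks an exon of the canonical transcript and had 9 own runs of 6121. In PDIA3 all members together held 95.1% and 94.2%, and the canonical PDIA3-201 had 286 and 318. RXYLT1, of a xylosyltransferase that acts on dystroglycan, had 95.9% and 97.8%, and GORASP1, of a Golgi stacking protein, 91.0% and 91.2%; in both genes the canonical transcript was listed at 0 in both libraries. IFNAR2-IL10RB, ZDHHC11B, CHURC1-FNTB and ENSG00000255639 had mean totals from 138 to 443 normalised counts and reached 91.3% to 100%.

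An NMD member was the leading transcript, the one with the most counts, in 490 genes in replicate 1 and 514 in replicate 2. It led in both libraries in 362 genes (6.997%) and in only 1 library in 280. With transcripts of the same version only, which leaves out most canonical transcripts, 999 of 4922 genes were led in both. With members of support level 1 or 2 only it was 232 of 2812 genes, and at a minimum total of 1000 it was 128 of 2145. After division by length it was 470 of 5174 genes, and with protein-coding and NMD transcripts only 422 of 5174. With members that had an own run only it was 287 of 4909. In 339 of the 362 genes (93.6%) the same member led in both, beside 85.2% of the genes led by another type of transcript in both. These percents cannot be compared as steadiness. A median gene listed 2 members among 11 transcripts, so few members could replace each other, and 32 of the 362 genes were listed with NMD transcripts only. Over all 11207 genes with several transcripts and the same minimum total, whatever their annotation, 84.4% had the same leading transcript. The canonical transcript, where listed and not itself a member, was at 0 in both libraries in 14.0% of the genes led by a member in both libraries, in 12.2% of those led by a member in 1, and in 7.46% of those led by others in both. In the last set the canonical transcript could itself be the leader, and a leader cannot be at 0. The lower percent there thus follows in part from how the sets were made. The canonical transcript had another version in GENCODE v44 than in the tables in 95.6%, 96.7% and 97.1% of these sets. Members leading in both libraries were shorter than the canonical transcript, with a median length ratio of 0.839 by GENCODE v44 lengths. In genes led by others the median was 1, but a leader that is itself the canonical transcript gives 1 by construction.

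**Figure D3:**
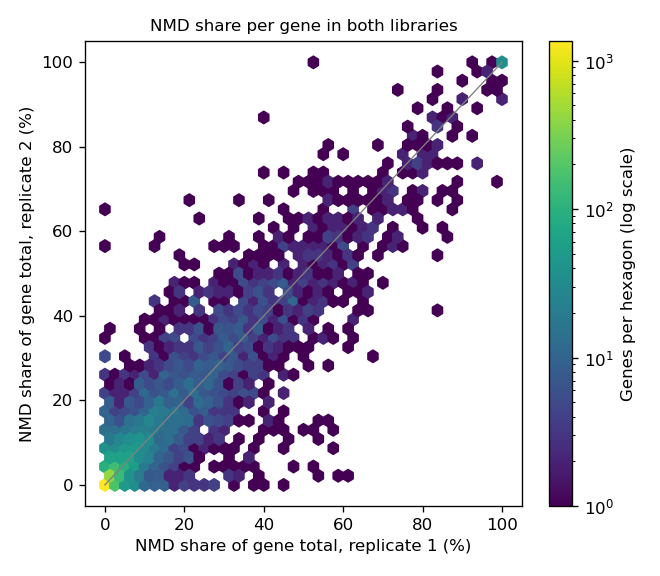
NMD share of the gene total in replicate 1 (x axis) and replicate 2 (y axis), both in percent, for the 5174 genes; colour gives the number of genes per hexagon on a log scale and the line marks equal shares. Most genes lay near the origin or the line, and 702 genes were over 10 percentage points apart.

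Gene shares of the libraries lay within 10 percentage points for most genes, among them the 673 with all members at 0 in both. Members were above 0 in both libraries in 3725 genes. Across the 5174 genes, which are not replicates, Pearson's r between the libraries was 0.920 and Spearman's rho 0.836. The median absolute difference was 1.91 percentage points, beside a median share of 4.34%, and 702 genes (13.6%) were over 10 points apart.

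Among all 67167 transcripts that averaged 10 or more normalised counts, 29.6% were over 2-fold apart between the libraries, and 9.11% were listed at 0 in 1 of them. Of the 5645 members with such a mean, 2338 were over 2-fold apart, or 41.4% (95% exact interval 40.1 to 42.7%), and 15.5% were listed at 0 in 1 library. Protein-coding transcripts of the genes described had 33.5%, and retained-intron transcripts 25.1%. Members were lower in count, and at like levels up to 1000 they lay close to protein-coding transcripts of these genes. Between 10 and 30 normalised counts the shares over 2-fold were 58.3% for members and 57.9% for protein-coding transcripts, between 30 and 100 they were 42.1% and 43.1%, between 100 and 300 they were 27.7% and 26.5%, and between 300 and 1000 they were 12.9% and 11.97%. At 1000 and above they were 7.79% (4.09 to 13.2%) and 4.43% (3.46 to 5.59%), from 12 of 154 members and 68 of 1534 protein-coding transcripts. These intervals treat transcripts as independent, though transcripts of a gene share reads. Their overlap therefore does not decide whether the classes differ there. Retained-intron transcripts were lower up to 300, with 33.1%, 20.5% and 13.1%.

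**Figure D4:**
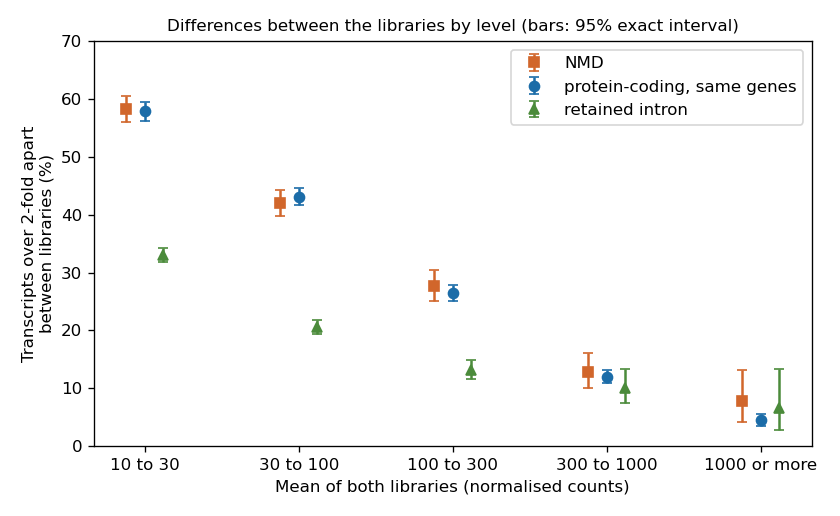
Percent of transcripts over 2-fold apart between the libraries (y axis) by mean normalised count (x axis, bins) for members (squares), protein-coding transcripts of the genes described (circles) and all retained-intron transcripts (triangles); bars are 95% exact intervals over transcripts. Members and protein-coding transcripts had 58.3% and 57.9% in the lowest bin and 7.79% and 4.43% in the highest. Their intervals overlap in every bin but treat transcripts as independent.

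The 5 members with the largest log2 differences, among those that averaged 10 or more normalised counts, were each listed at 0 in 1 library. Such a ranking favours values of 0, which 15.5% of these members had in 1 library. RPS3-215 was listed at 0 in replicate 1 and had 2728 normalised counts in replicate 2, while the RPS3 total differed by -0.23 on the log2 scale. LDHA-222, of lactate dehydrogenase A, had 0 and 1304, RPLP0-210 had 0 and 890, and SRSF2-204 had 0 and 604. REV3L-205, of the catalytic subunit of DNA polymerase zeta, went the other way, with 687 in replicate 1 and 0 in replicate 2. In LDHA, RPLP0 and SRSF2 the gene totals also differed far less, by -0.30, -0.11 and 0.12, and in REV3L by -0.70. RPS3-215, LDHA-222 and SRSF2-204 had no own run of 50 nt.

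How far members repeated moved with their own sequence. Among members of the genes described that averaged 10 or more normalised counts, 49.5% (46.3 to 52.7%) of those with no own run were over 2-fold apart, 44.04% of those with 1 to 49, 42.5% of those with 50 to 199 and 27.3% (24.6 to 30.02%) of those with at least 200. Members with no own run were 20.9% of all members of these genes and held 23.2% ± 0.340 of their NMD counts. Level and length moved with this too, as members with at least 200 own runs had a median of 1867 nt, beside 1270 nt for those with none, and 60.5% of them had a mean of at least 10, beside 38.5%. The part of each in the difference was not tested.

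By structure, members followed the rule they were typed with. Of the 15526 members with a stop codon and a junction, 15521 had the stop at least 50 nt before the last junction, with a median of 331 nt, and 5 did not. The canonical protein-coding transcripts of the genes described ended after their last junction, by a median of 134 nt. The median member in these genes coded for 279 nt, beside 1512 nt in the canonical transcripts, and the coding start was not found in 25.5%. TGA was the stop codon of 58.5% of members, beside 50.1% of canonical transcripts, TAA of 22.2% beside 28.3%, and TAG of 19.3% beside 21.5%.

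Compared with the canonical transcript of the gene, each member was placed in the first class that applied. The order was canonical stop, exon gained and skipped, exon gained, exon skipped, intron kept, then the rest. Members with an exon gained were 33.6% and held 20.6% ± 0.0305 of the NMD counts, among them SRSF6-202, HINT1-206 and PDIA3-202. Those that skipped an exon were 30.5% and held 30.7% ± 0.0151, among them CCT3-203 and PODXL-203. Members with another splice site or transcript end were 22.8% and held 36.8% ± 0.233, among them RPLP0-214, RACK1-210, RPL13A-214 and RPS25-206. Members that ended at the canonical stop were 4.25% and held 6.01% ± 0.0192, and those that both gained and skipped an exon were 7.07% and held 2.89% ± 0.182. Those that kept an intron and met no earlier class were 1.28% and held 1.26% ± 0.108. Members of an earlier class that also kept an intron were not counted there. Members ending at the canonical stop had a median share of their gene of 2.44%, and members keeping an intron 2.96%, beside 0.543% for a gained exon and 0.784% over all members of the genes described. Median length also differed, at 1506 nt for the canonical stop, 2122 nt for a kept intron and 993 nt for a gained exon. Support level 1 or 2 covered 43.2%, 52.0% and 30.1% of them. The part of length and evidence was not tested.

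GENCODE grades the evidence for a transcript from support level 1, every junction backed by an mRNA, to 5, with no single transcript in support. Levels 1 and 2 made up 16.2% and 18.7% of members and held 27.6% ± 0.00458 and 30.2% ± 0.367 of the NMD counts, while level 3 made up 18.2% and held 10.9% ± 0.341 and level 4 made up 9.54% and held 0.859% ± 0.0139. Level 5 made up 30.2% and held 24.7% ± 0.580. The median share of the gene was 3.48% at level 1, 2.46% at level 2, 0.415% at level 3, 0.0392% at level 4 and 0.619% at level 5. Median length moved with this, from 2160 nt at level 1 and 1767 nt at level 2 to 708.5 nt, 567 nt and 974 nt at levels 3 to 5, and its part was not tested.

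The median share of the gene was 0.442% for members with the stop 50 to 150 nt before the last junction, 0.398% at 150 to 300 nt, 0.847% at 300 to 600 nt, 1.89% at 600 to 1200 nt and 2.88% beyond 1200 nt. Length and evidence moved with this: the median length went from 672 nt at 50 to 150 nt to 3247 nt beyond 1200 nt, and the part with support level 1 or 2 from 27.02% to 57.6%. Among members of support level 1 or 2 alone the medians were 2.04%, 1.67%, 3.01%, 3.09% and 4.64%. The part of length in this was not tested.

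Among the gene lists chosen for the description, the SR proteins and TRA2, which bind exonic enhancers and direct splice site choice, each had a member and a total above the minimum. In 6 of 14 genes (42.9%) the share was at least 10% in both libraries, beside 30.5% of all genes described, and the median over genes of the mean share was 8.99%, beside 4.68%. The pooled share was 11.7% (replicate 1) and 16.6% (replicate 2), with a mean of 14.2% ± 3.45 (SD, n = 2). Without SRSF2, which held 26.8% of the NMD counts of the list, it was 11.4% ± 1.04. SRSF2 had 22.5% in replicate 1 and 51.7% in replicate 2. SRSF2-208 had 922 and 1699 normalised counts and SRSF2-204 had 0 and 604, while the canonical SRSF2-202 had 707 and 0.102.

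Among the other genes of this list, SRSF7 had 28.7% and 29.6%, SRSF1 24.6% and 22.7%, and SRSF6 26.7% and 35.2%. SRSF6-202, the member printed above, had 461 and 492 normalised counts. It had 317 own runs, SRSF9-206 had 91, SRSF3-203 had 49 and SRSF1-207 had 48. TRA2B-205, SRSF7-208, SRSF2-208 and SRSF2-204 had none, so their counts rest on the division of shared reads. SRSF9-206 had 264 and 343 and TRA2B-205 423 and 299, which was 6.38% and 9.43% of SRSF9 and 10.9% and 9.26% of TRA2B. SRSF3 had 3.14% and 7.21%, with 172 and 309 normalised counts in SRSF3-203, and TRA2A had 0.669% and 6.02%. SRSF4 had the lowest mean share in the list, with 0.458% and 0.243%.

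Of the hnRNP and PTB genes, which code for RNA-binding proteins that often oppose SR proteins, 15 of 24 had a member and enough counts, with a pooled share of 9.02% ± 0.771 and a median of 4.87%. In 6 of 15 (40%) the share was at least 10% in both libraries, beside 30.5% of all genes described. HNRNPU, the gene for a nuclear scaffold protein, held the most NMD counts, 3379 and 2842, at 24.6% and 24.8%. Of its 9 members, HNRNPU-224 had no own run and differed between the libraries. It had 2257 and 1130 normalised counts, or 16.4% and 9.87% of the gene. HNRNPD, the gene for the AU-rich element binding protein AUF1, was the only gene of the list led by a member in both libraries: HNRNPD-211 had 866 and 685 normalised counts. PTBP2, the neuronal paralogue of PTBP1, had 27.5% and 27.3%. PTBP2-207, at 26.4% and 26.9% of PTBP2, had no own run, and HNRNPD-211 had 92. HNRNPC and HNRNPM were listed at 0 in all members.

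The spliceosome and splicing kinase list had a pooled share of 4.95% ± 0.516 over 15 genes and a median of 2.88%. CLK1, a kinase that phosphorylates SR proteins, had 42.5% and 43.6%, and its relative CLK4 11.9% in both libraries. SNRNP70, of the U1 snRNP, had 19.3% and 26.1% and held 39.1% of the NMD counts of the list. Of the other RNA-binding proteins, 15 genes had a pooled share of 12.6% ± 0.128 and a median of 4.91%. The cytoplasmic poly(A)-binding protein gene PABPC1 had 16.6% and 20.4%, and QKI, of a regulator of splicing and RNA stability, 51.9% and 40.5%. RBM39, of a splicing cofactor, had 16.4% and 24.4%. RBM39-216 had no own run, PABPC1-223 had 48 and QKI-204 had 643.

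Of 18 NMD and exon junction complex genes, 8 had a member and enough counts, with a pooled share of 3.08% in replicate 1 and 2.97% in replicate 2 (3.03% ± 0.0820, SD, n = 2) and a median of 2.39%, beside 11.2% and 4.68% over all genes described. MAGOHB, a paralogue of the junction complex protein MAGOH, was the only gene at 10% or more in both (12.5% of the 8, beside 30.5% of all), with 42.5% and 44.7% on totals of 515 and 384 normalised counts, and it held 42.5% of the NMD counts of the list. CASC3, another component of the complex, had 7.68% and 7.26%. MAGOHB-208 had no own run, and CASC3-204 had 46. The member of NBAS was listed at 0 in both libraries.

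Of 79 ribosomal protein genes 32 had a member, and their pooled share was 12.7% ± 0.371 while the median was 0.684%. The share was at least 10% in both libraries in 7 of 32 (21.9%, beside 30.5% of all genes described), and a member led in both libraries in 5 (15.6%, beside 6.997%), among them RPLP0, RPL13A, RPL8 and RPS25. RPS3 had 60.7% and 61.0% spread over 6 members and was led by a protein-coding transcript. The 52 members of these genes held 9.68% ± 0.703 of all NMD counts. In RPL3, RPS3A and RPL37A every member was listed at 0 in both libraries.

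Translation factor genes had a pooled share of 5.54% ± 1.10 over 19 genes and a median of 1.62%. EIF3L, of an initiation factor subunit, had 19.5% and 16.3%, EIF4A2, of an RNA helicase, 18.9% and 10.9%, EEF1B2 of an elongation factor 16.5% and 19.0%, and EIF6, of a factor that binds the large subunit, 39.1% and 30.9%. EIF4A2-207 had no own run, while EIF3L-205 had 46, EEF1B2-208 had 45 and EIF6-206 had 18. EIF3F, EIF3H, EIF4G2 and ETF1 were at 0 in all members in both libraries. In the stress response and amino acid list, 8 genes had a pooled share of 30.02% ± 1.53, and 73.7% of these NMD counts were of SHMT2, the mitochondrial serine hydroxymethyltransferase gene. SHMT2-231 had 4788 and 4699 normalised counts, or 61.2% and 58.2% of SHMT2. Without SHMT2 the list had 11.0% ± 2.46. ASNS, of asparagine synthetase, had 18.3% and 15.8%, and the members of ATF3 and GADD45B were at 0. The polyamine list, 5 genes, had 0.651% ± 0.108.

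**Figure D5:**
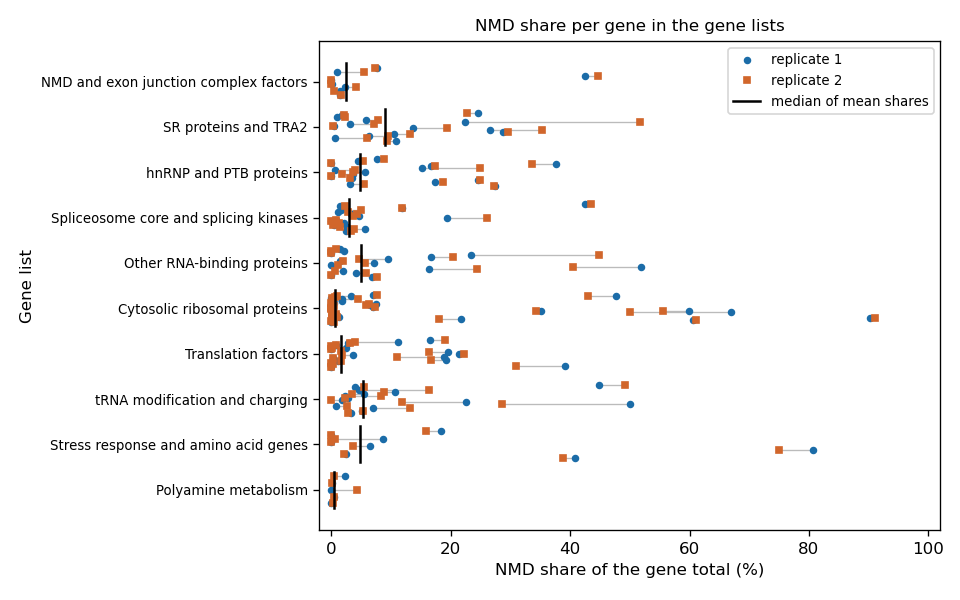
NMD share of the gene total in percent (x axis) for each gene described in the 10 lists (y axis); circles are replicate 1, squares replicate 2, grey lines join the libraries of a gene, and black lines mark the median over genes of the mean share. Medians ran from 0.415% for polyamine genes to 8.99% for SR proteins and TRA2, and SRSF2 and TARS1 show the wide gaps between the libraries.

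Of the tRNA modification and charging genes, the pathway of the study, 14 had a member and enough counts. Their pooled share was 22.1% in replicate 1 and 14.1% in replicate 2 (18.1% ± 5.66, SD, n = 2). TARS1, of the cytosolic threonyl-tRNA synthetase, held 70.7% of the NMD counts of the list and had 50.1% and 28.5%, and without it the share was 7.87% ± 0.510. ALKBH1, of a demethylase that acts on tRNA, had 44.8% and 49.1%, and METTL2B, of a cytosolic m3C methyltransferase, 10.7% and 8.87%. ALKBH1-204 had no own run, TARS1-209 had 47 and METTL2B-207 had 89. METTL8, the mitochondrial m3C methyltransferase gene, had 2 members. METTL8-203 was listed at 0 in both libraries. METTL8-207 had 59.0 normalised counts in replicate 1 and 30.8 in replicate 2, which was 5.51% and 3.49% of METTL8, a mean of 4.503% ± 1.43 (SD, n = 2). Its stop, printed above, lay 50 nt before the last junction, the lower limit of the rule, and ended the coding sequence after 241 amino acids in place of 407. Its 67 own runs of 2197 included those over 1 junction that no other METTL8 transcript had.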

How the data were processed

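Both HEK293 libraries of rRNA-depleted total RNA were made with a TruSeq kit per the labels. The authors aligned the reads to GRCh38, and the submitters' processing notes name FastQC, STAR 2.7.0d, RSEM 1.3.3 and R 3.6.3. The deposited tables held an estimated count per transcript and a normalised signal, the estimated count divided by a size factor, neither divided by length. The tables of METTL8 transcripts repeat the full tables and were not used. Of the transcripts listed, 202217 were matched without version to GENCODE v44, 173547 with the same version (14524 of the members). The 4479 others stayed in library totals only. Gene totals sum matched transcripts. Members and lists were chosen with earlier results of these data known. The transcripts named were the 12 highest members, the 12 genes with the highest share in their lower library, up to 5 genes per list with the most NMD counts, METTL8 members, the 5 largest differences and genes next to the minimum; sequences and further list genes were chosen after values were seen. The exceptions at 100% are given in the text. Some items that the rule names are not reported here. With 1 group no test was made: an exact sign-flip permutation test over 2 libraries allows no p under 0.5. Values are means ± SD over libraries, with exact (Clopper-Pearson) 95% intervals. The share calculation was tested on simulated data. Alternatives covered length, version, support level, minimum, denominator, pseudocount and each library alone. Python 3.11.15, pandas 2.3.3, numpy 2.4.6 and scipy 1.17.1 were used.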

Additional observations from a re-analysis of the deposited data

How the results depend on the processing

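No paired analysis was possible because the labels give 1 group of 2 libraries. Of 35 alternatives other than a library alone, 11 stayed within the spread of the main value (counts within 1.5 times). With either library alone the NMD share of all counts was 3.89 to 3.91%, the pooled share of gene totals 11.1 to 11.3%, the median share per gene 3.99 to 4.70% and the genes led 490 to 514. Divided by length, the share of all counts was 2.57%, the pooled share 13.01% and the median 7.08%, and 470 of 5174 genes were led. With transcripts of the same version only they were 6.38%, 19.1% and 10.5%, and 999 of 4922 genes were led. This version filter removes most canonical transcripts from the totals. The support level filter, 1 or 2 only, applied to members and kept all transcripts in the totals. It gave a share of all counts of 2.25%, a pooled share of 12.8% and a median of 5.60%. With it 232 of 2812 genes were led and 38.8% of members were over 2-fold apart. With protein-coding genes only in the total, the share of all counts was 5.16%. A minimum gene total of 1000 gave a pooled share of 10.6%, a median of 2.88% and 128 of 2145 genes led. Protein-coding and NMD transcripts only gave a pooled share of 12.5% and a median of 5.10%, with 422 of 5174 genes led. Chosen after seeing the data, members with an own run of 50 nt only gave 8.998%, 3.19% and 39.7% over 2-fold. With them 287 of 4909 genes were led. Leaving out genes listed with NMD transcripts only, also chosen after seeing the data, gave a pooled 11.0%. The percent over 2-fold was 21.7% at a mean of at least 100 and 53.6% with no minimum. Where no construction is named, the cause was not tested.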
